A study of Mus musculus with 6 samples.

Results

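Cyp2e1 and the flavin monooxygenase genes Fmo1, Fmo2, Fmo4 and Fmo5 belong to the enzyme families that oxidise thioacetamide (TAA), the hepatotoxin used to scar the livers of this study, although not every member is known to act on it. They were found by gene symbol in the table of read counts, where all 5 were among 21983 symbols, and all 5 passed the filter on low counts that left 13153 genes for testing. Whole liver of 6 C57BL/6 mice was sequenced. In 3 mice, labelled Lrat-Cre; Prmt1f/f and called knockout mice here (numbers 49, 82 and 88), Cre recombinase under control of Lrat, which in liver is active in hepatic stellate cells, was combined with floxed alleles of Prmt1, an arginine methyltransferase gene. The other 3 mice, labelled Prmt1f/f and called control mice (42, 83 and 90), carried the floxed alleles without Cre. Every mouse of both genotypes had received TAA in drinking water at 400 mg/L for 16 weeks. No untreated liver was among the samples, so the response of these genes to TAA was not measured. An age of 10 weeks is stated for the mice without the time it refers to, and sex is not stated.

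TAA is harmless until it is oxidised on its sulphur, first to an S-oxide and then to a reactive S,S-dioxide that attaches to lysines of liver proteins. The cytochrome P450 enzyme CYP2E1, which also oxidises ethanol and paracetamol, is regarded as the main catalyst, and flavin monooxygenases, which use NADPH and a bound flavin to add oxygen to nitrogen and sulphur atoms, also form the S-oxide. Hepatocytes near the central vein hold most CYP2E1, and TAA injury starts in that zone. The knockout is directed at stellate cells, whereas Cyp2e1 is a gene of hepatocytes. The comparison therefore gives the level of toxin-activating genes in livers whose genotype differs in another cell type.

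Cyp2e1 lies on mouse chromosome 7 from 140763739 to 140774987 on the plus strand, and Fmo5 on chromosome 3 from 97628804 to 97655282 on the plus strand (GENCODE M21 on GRCm38, the assembly also called mm10). The other members sit side by side on the minus strand of chromosome 1, Fmo4 from 162793188 to 162813972, Fmo1 from 162829561 to 162866610 and Fmo2 from 162874317 to 162898726. All 5 are protein-coding, and 0 annotated genes overlapped any of them. No 50-base stretch of their transcripts occurred in another Fmo or Cyp2 gene. Stretches found in transcripts of other genes made up 3.91% of Cyp2e1, 7.02% of Fmo1, 0.434% of Fmo5 and 0% of Fmo2 and Fmo4.

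Promoter windows of RefSeq (GRCm38.p6, from 250 bases before to 50 bases after a transcription start) were available for 4 of the members. Those of Cyp2e1, a gene that differed up to 5.48-fold among control mice, and of Fmo2, which differed up to 4.71-fold among knockout mice in another order of mice, are shown as far as they lie before the annotated gene. Both are written 5′ to 3′ on the strand of the gene. Capitals mark matches to 2 motifs searched on both strands, which do not overlap each other. These were the core of TCF/LEF sites of the Wnt pathway (CTTTGA) and the TATA box (TATAAA).
Cyp2e1, chr7:140763569-140763738, plus strand: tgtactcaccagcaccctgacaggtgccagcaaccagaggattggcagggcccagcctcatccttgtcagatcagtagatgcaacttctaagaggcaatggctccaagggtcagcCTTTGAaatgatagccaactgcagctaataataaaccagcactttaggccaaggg
Fmo2, chr1:162898759-162899008, minus strand: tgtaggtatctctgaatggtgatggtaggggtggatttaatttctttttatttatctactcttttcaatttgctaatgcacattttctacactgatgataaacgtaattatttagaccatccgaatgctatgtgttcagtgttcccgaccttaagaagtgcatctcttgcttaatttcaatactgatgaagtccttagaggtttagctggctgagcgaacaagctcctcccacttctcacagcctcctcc
In Cyp2e1 the TCF/LEF core lay at -135 to -130 from the RefSeq start and a TATA box at -31 to -26, beyond the stretch shown. The TCF/LEF core was found in 16.0% of 32544 distinct windows of the same length and the TATA box in 13.6%. None of these letters occurred in the Fmo2 windows. The Fmo4 window held the TCF/LEF core on its other strand at -110 to -105, and the Fmo5 window a TATA box on its other strand at -195 to -190. A match describes the letters and does not show that a factor binds there.

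Total counts per mouse ranged from 13303884 to 16462278. Of the genes that mark hepatocytes, the main cells of the labelled tissue, all 14 found in the table were detected. Their summed level was 88248 to 139275 CPM (counts per 1000000 reads counted, with TMM scaling for library composition) in control and 106184 to 129158 CPM in knockout mice. Prmt1, the targeted gene, had 38.9, 44.4 and 49.8 CPM in control mice 42, 83 and 90 and 35.8, 24.7 and 25.8 CPM in knockout mice 49, 82 and 88. Of 17 stellate cell and fibroblast markers, 16 had a fold change below 0, and their sum was 1657 to 1917 CPM in control and 590 to 1202 CPM in knockout mice. In bulk tissue, fewer cells of a type and less RNA per cell cannot be told apart. Cholangiocyte markers summed to 578 to 1407 and 318 to 802 CPM, macrophage and Kupffer cell markers to 615 to 1919 and 779 to 1100 CPM, and endothelial markers to 611 to 737 and 605 to 788 CPM in control and knockout mice. Neutrophil markers summed to 18.4 to 83.1 and 11.8 to 17.6 CPM, lymphocyte markers to 9.87 to 36.7 and 10.6 to 11.7 CPM, portal fibroblast and mesothelium markers to 94.6 to 162 and 46.2 to 92.5 CPM, and erythroid markers to 32.9 to 80.1 and 37.3 to 192 CPM. Their part in the differences of the member genes was not tested.

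Cyp2e1 and Fmo5 were each about 2.2-fold higher on average in knockout livers, Fmo1 was 1.27-fold higher, and Fmo2 and Fmo4 showed no shared direction among mice. Of the 5 genes, 4 had a fold change above 0, against 47.3% of all genes tested. After adjustment over all genes, 0 of 5 passed 0.05 in edgeR's quasi-likelihood test, which called 0% of all genes. With an unadjusted p under 0.05 in edgeR there was 1 member, Fmo5, against 11% of all genes (5.06% higher and 5.95% lower in knockout mice). DESeq2 called Fmo5 alone (1 of 5), against 1.81% of all genes, of which 0.874% were higher and 0.935% lower. Limma-voom called 0 of 5 and 0% of all genes. A weight per library, a setting added once the data had been seen, gave 2 members in limma-voom, Cyp2e1 and Fmo5, against 4.26% of all genes.

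**Figure D1:**
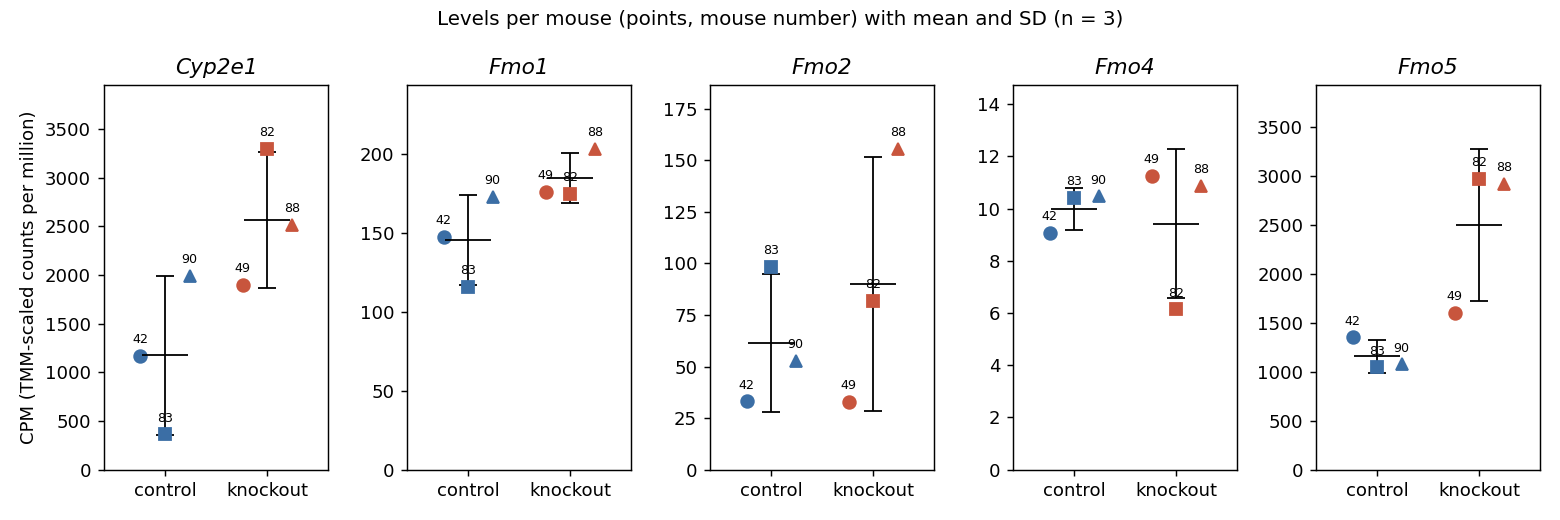
Level of each gene in CPM (vertical axes, each from 0) in the 3 control and 3 knockout mice, with the mouse number at each point and bars for the mean and SD. The knockout points of Fmo5 all lie above the control points, those of Cyp2e1 overlap because control mouse 90 (1992 CPM) exceeds knockout mouse 49 (1898 CPM), and those of Fmo2 and Fmo4 are intermixed.

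Cyp2e1 had 1166, 363 and 1992 CPM in control mice 42, 83 and 90 and 1898, 3292 and 2512 CPM in knockout mice 49, 82 and 88. Mouse 83 was the lowest by far, and control mouse 90 lay just above knockout mouse 49, so the genotypes overlapped on this scale. Without TMM scaling they did not, as Cyp2e1 took 0.183% of all counts in control mouse 90 and 0.190% in knockout mouse 49. The share of all genes with groups apart without this scaling was not determined. The means were 1174 ± 815 CPM in controls and 2567 ± 699 CPM in knockouts (SD, n = 3 each), a log2 fold change of 1.13 (SE 0.54, 95% interval -0.09 to 2.35; edgeR adjusted p = 0.466). An exact permutation test, two-sided, gave p = 0.2, where 0.1 is the smallest that 20 assignments of mice allow. Without control mouse 83 the log2 fold change was 0.70, and without control mouse 90 it was 1.72.

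Fmo5, a microsomal enzyme unusual in its family for oxidising ketones and aldehydes to esters rather than attacking nitrogen or sulphur, had 1355, 1048 and 1076 CPM in control mice 42, 83 and 90. Knockout mice 49, 82 and 88 had 1604, 2977 and 2923 CPM. Every knockout mouse exceeded every control mouse, mouse 49 by a small margin over control mouse 42 and mice 82 and 88 by much more. The means were 1160 ± 170 CPM and 2501 ± 778 CPM (SD, n = 3 each). This is a log2 fold change of 1.11 (SE 0.31, 95% interval 0.41 to 1.81; adjusted p = 0.323 in edgeR and 0.0107 in DESeq2). A log2 fold change at least this high was found in 120 of 13153 genes (0.912%). An exact permutation test, two-sided, gave p = 0.1. Leaving out each mouse in turn gave log2 fold changes from 0.95 to 1.35.

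Fmo1, whose enzyme oxidises a broad range of sulphur and nitrogen compounds, had 148, 116 and 173 CPM in control mice 42, 83 and 90 and 176, 175 and 203 CPM in knockout mice 49, 82 and 88. The groups were apart by only 1.01-fold between control mouse 90 and knockout mouse 82. The means were 146 ± 28.5 CPM and 185 ± 16.0 CPM (SD, n = 3 each), a log2 fold change of 0.34 (SE 0.21, 95% interval -0.12 to 0.81; edgeR adjusted p = 0.552). The interval reaches from 0.919-fold to 1.75-fold, so it does not contain a difference as large as the 2.16-fold of Fmo5. It overlaps the interval of Fmo5 (1.33-fold to 3.50-fold), however. In CPM, Fmo1 and Fmo5 were the 2 members whose groups did not overlap with knockout mice higher, a pattern found in 8.94% of all genes. For Fmo1 this depended on the scale used (see the length-scaled levels below). Groups that did not overlap with knockout mice lower were found in 0 of 5 members and 7.95% of all genes. The difference between the fold changes of Fmo1 and Fmo5 was not tested.

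**Figure D2:**
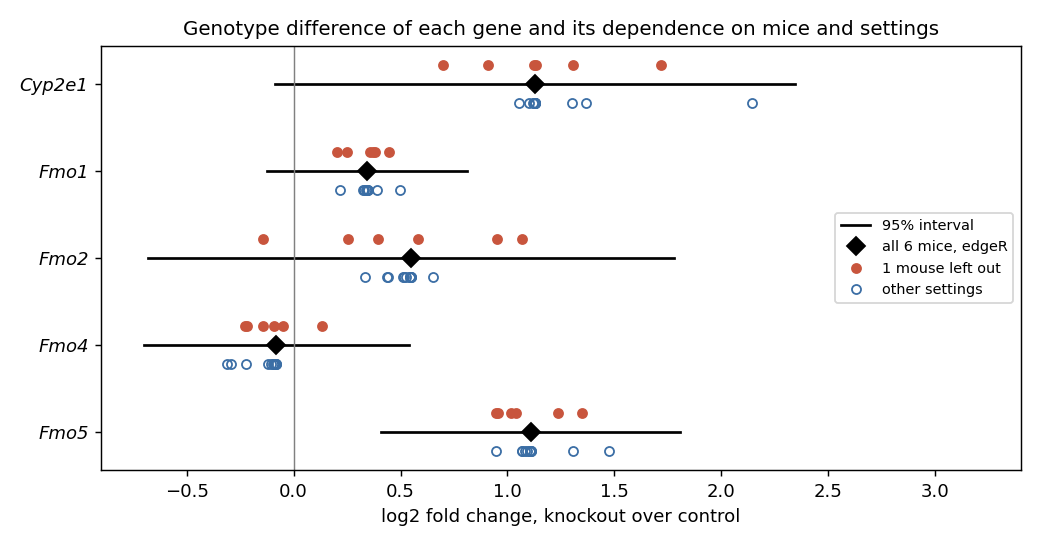
Log2 fold change of knockout over control (horizontal axis) for each gene, with the 95% interval of the fit to all 6 mice (line and diamond), the values with 1 mouse left out (filled circles) and those under other settings (open circles). Fmo5 stayed between 0.95 and 1.48 throughout, Cyp2e1 ranged from 0.70 to 2.15, and Fmo2 and Fmo4 crossed 0 when a single knockout mouse was left out.

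Fmo2, the main flavin monooxygenase of lung in many mammals, had 33.1, 98.4 and 52.8 CPM in control mice 42, 83 and 90. Knockout mice 49, 82 and 88 had 33.0, 81.8 and 156 CPM. Each genotype held low and high mice: control mouse 42 and knockout mouse 49 were nearly equal, and mouse 88 stood highest. A log2 fold change of 0.55 was fitted (SE 0.54, 95% interval -0.68 to 1.78; edgeR adjusted p = 0.711), and it was -0.14 without knockout mouse 88 and 1.07 without control mouse 83. Of 5 lung epithelium markers, Sftpc, Sftpb and Scgb1a1 had 0 counts in every mouse, while Sftpa1 and Ager were detected. The list summed to 4.58 to 6.40 CPM in control and 7.47 to 10.95 CPM in knockout mice, nearly all of it Sftpa1, and was highest in mouse 88. Sftpa1 was higher in all knockout mice (log2 fold change 0.82, SE 0.31; adjusted p = 0.396 in edgeR), and its part in the level of Fmo2 was not tested. The stellate cell and fibroblast sum was 1881, 1917 and 1657 CPM in control mice 42, 83 and 90. In knockout mice 49, 82 and 88 it was 590, 1202 and 1195 CPM. The part of these cells in the level of Fmo2 was not tested.

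Fmo4, the least studied of the 5, was the scarcest, with 82 to 205 counts per mouse. Its level was 9.07, 10.4 and 10.5 CPM in control mice 42, 83 and 90 and 11.3, 6.15 and 10.9 CPM in knockout mice 49, 82 and 88. Only mouse 82 stood apart, on 82 counts with a 95% counting interval of 65.2 to 102, and the other 5 mice lay within 9.07 to 11.3 CPM. The fitted log2 fold change was -0.08 (SE 0.27, 95% interval -0.70 to 0.54; edgeR adjusted p = 0.924), and it was 0.13 without mouse 82. The interval does not contain the 1.11 fitted for Fmo5, but it overlaps the interval of Fmo5 (0.41 to 1.81). The difference between the fold changes of Fmo4 and Fmo5 was not tested.

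Set against each other per length of transcript (counts divided by the summed exon length of a gene and scaled to a total of 1000000, a TPM scale that is a level and not a difference), Cyp2e1 was the most abundant in 5 of 6 mice. Its length-scaled level was 1368 ± 720 in control and 3023 ± 616 in knockout livers (SD, n = 3). Fmo5 followed with 574 ± 156 and 1119 ± 290, then Fmo1 with 62.8 ± 5.66 and 75.5 ± 7.81, Fmo2 with 31.96 ± 23.1 and 40.6 ± 27.5, and Fmo4 with 7.52 ± 1.73 and 6.63 ± 2.34. Control mouse 83 was the exception in order, with 617 for Fmo5 above 562 for Cyp2e1. On this scale the groups of Fmo1 overlapped, with 69.1 in control mouse 42 and 66.8 in knockout mouse 82. Those of Cyp2e1 did not, with 1951 in control mouse 90 and 2441 in knockout mouse 49. The share of all genes with groups apart on this scale was not determined. Fmo1 was above Fmo2 in all 6 mice, but by little in mice 83 (61.5 and 58.6) and 88 (82.01 and 70.5), whereas Fmo5 was 6.91-fold to 18.9-fold above Fmo1 in every mouse. The size of these folds depends on the length used. Fmo5 made up 82.7% to 88.2% of the summed level of the 4 Fmo members in control mice and 88.5% to 92.3% in knockout mice.

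**Figure D3:**
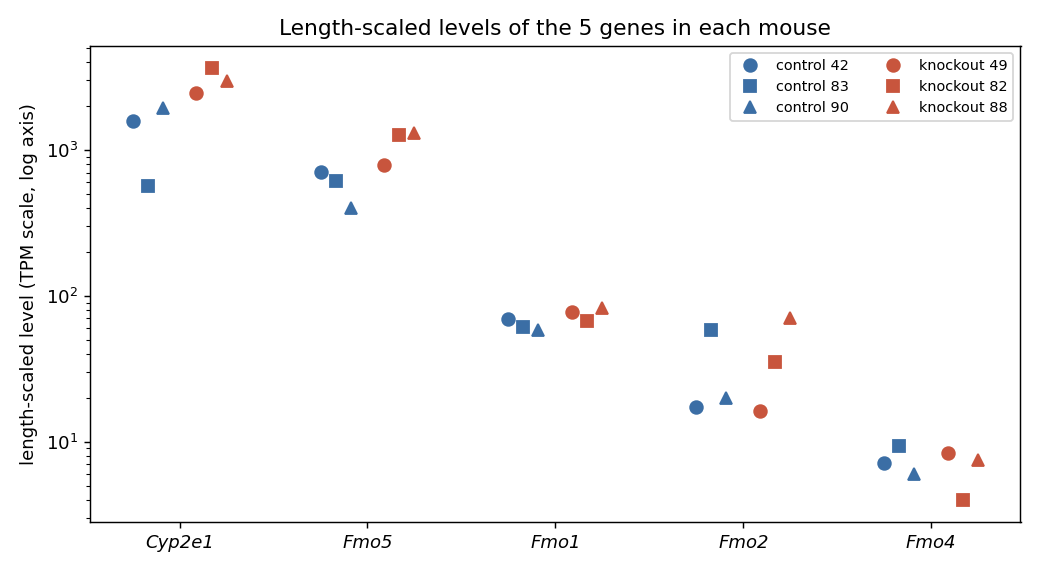
Length-scaled level (vertical log axis, TPM scale) of the 5 genes in each of the 6 mice, blue for control and red for knockout. Cyp2e1 and Fmo5 lie above the other genes in every mouse, and Cyp2e1 of control mouse 83 (562) falls to the range of Fmo5.

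Ratios within a library do not depend on how libraries are scaled. The log2 ratio of Fmo5 to Cyp2e1 counts was 0.22, 1.53 and -0.89 in control mice 42, 83 and 90 and -0.24, -0.15 and 0.22 in knockout mice 49, 82 and 88. Knockout mice lay close together, inside the wide range of the controls, with a difference of means of -0.34 (two-sided exact permutation p = 0.8; adjusted over 4 ratios 0.8), which was 0.28 without control mouse 83. The ratio to Cyp2e1 differed between genotypes by -1.05 for Fmo1, -0.98 for Fmo2 and -1.54 for Fmo4, all with overlapping groups. Without control mouse 83 these differences were -0.51, 0.12 and -0.81, the sign of Fmo2 turning. The two-sided exact permutation p-values with all mice were 0.2, 0.5 and 0.2, or 0.4, 0.667 and 0.4 when adjusted over the 4 ratios.

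The mean log2 CPM of 14 hepatocyte markers was 0.20 higher in knockout livers, with overlapping groups. Control mouse 90 had the highest mean of all 6 mice, and the difference was 0.003 without control mouse 83 and 0.43 without control mouse 90. Relative to this mean, Cyp2e1 was at -1.24, -2.62 and -1.03 in control mice 42, 83 and 90 and at -0.64, -0.16 and -0.47 in knockout mice 49, 82 and 88. On this scale the genotypes did not overlap. The difference was 1.21 with all mice and 0.71 without control mouse 83. The subtracted mean was highest in control mouse 90, the mouse whose Cyp2e1 overlapped the knockout mice in CPM. The share of all genes with groups apart on this scale was not determined. Fmo5 was at -1.03, -1.09 and -1.92 in the control mice and -0.89, -0.30 and -0.25 in the knockout mice, a difference of 0.87. It was 0.58 without control mouse 90. Both genes had p = 0.1 in a two-sided exact permutation test, which can give no smaller value, and 0.25 when adjusted over the 5 members. The differences of Fmo1, Fmo2 and Fmo4 on this scale were 0.16, 0.23 and -0.33, with overlapping groups and adjusted exact permutation p-values of 0.5, 0.9 and 0.625. With 1 mouse left out, that of Fmo1 lay between 0.06 and 0.27. The sign turned for Fmo2, which lay between -0.27 (without knockout mouse 88) and 0.84 (without control mouse 83), and was -0.10 without control mouse 42 and -0.04 without control mouse 90. It also turned for Fmo4, at 0.02 without knockout mouse 82.

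Cytochromes P450 take their electrons from NADPH through P450 oxidoreductase, encoded by Por, and cytochrome b5, whereas flavin monooxygenases need neither. Por had 525, 436 and 435 CPM in control mice 42, 83 and 90 and 614, 968 and 1202 CPM in knockout mice 49, 82 and 88. As for Fmo5, all knockout mice were above all control mice and mouse 49 was the lowest of them (log2 fold change 0.996, SE 0.28; adjusted p = 0.323 in edgeR and 0.025 in DESeq2). Of the 7 electron donor genes tested, 6 had a fold change above 0 with a median of 0.12, against a median of -0.02 for all genes. Of these 6, Cyb5r1 was all but at 0. The median was 0.03 without knockout mouse 82 and 0.04 without control mouse 42, and the number above 0 was 4 to 5 with 1 mouse left out. DESeq2 called 1, Por, against 1.81% of all genes, and edgeR 0. The other gene named by rule, the cytochrome b5 reductase gene Cyb5r3, was at -0.26 (SE 0.24).

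Among genes of the zone around the central vein, where Cyp2e1 is active, 17 of 23 had a fold change above 0 (median 0.31). In 6 all knockout mice were higher and in 1 all were lower, against 8.94% and 7.95% of all genes. The 6 include Cyp2c37 and, named after their values were seen, Cyp2c29, Cyp2c50 and Cyp2c54. These Cyp2c genes are near copies, so their reads are uncertain and they do not count as separate observations. The median was 0.10 without control mouse 83 and 0.64 without control mouse 42. DESeq2 called 4, all higher and Cyp2c37 and Cyp2c54 among them, against 0.874% of all genes called higher, and edgeR 0. Cyp2c37, a cytochrome P450 gene, was at 27.8 ± 14.5 CPM in controls and 112 ± 71.5 CPM in knockouts (log2 fold change 2.01, SE 0.51). Slco1b2, a bile acid and drug uptake carrier, had 352 ± 138 and 826 ± 219 CPM (1.23, SE 0.33; SD, n = 3 each). Larger log2 fold changes than that of Cyp2e1 were found in 5 of the 23. Of genes that read out Wnt signalling, named after their values were seen, Glul was at -0.34 (SE 0.21), Axin2 at -0.10 (SE 0.25), Lgr5 at 0.16 (SE 0.27), Tbx3 at 0.31 (SE 0.36) and Rnf43 at 0.22 (SE 0.30), all with overlapping groups. Nkd1, at -0.66 (SE 0.24), was lower in all knockout mice, and Znrf3, at 0.585 (SE 0.18), was higher in all of them.

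Genes of the opposite, periportal zone had the same direction on balance. Of 20, 16 had a fold change above 0 with a median of 0.58, which was 0.30 without knockout mouse 88. In 6 all knockout mice were higher and in 2 all were lower, against 8.94% and 7.95% of all genes. DESeq2 called 6 higher and 1 lower, against 0.874% and 0.935% of all genes, and edgeR 0. Uroc1 and Hal, both of histidine breakdown, had 288 ± 24.6 against 605 ± 138 CPM (log2 fold change 1.07, SE 0.24) and 181 ± 26.3 against 367 ± 101 CPM (1.02, SE 0.26; SD, n = 3 each).

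Among 18 transcription factors of drug-metabolism genes, 14 had a fold change above 0 (median 0.42). In 8 of them the groups were apart with knockout mice higher, as in 8.94% of all genes. The median was 0.25 without knockout mouse 49 and 0.27 without control mouse 90. Nr1i3, the xenobiotic receptor CAR, was at 5.16 ± 1.14 CPM in controls and 13.2 ± 2.92 CPM in knockouts (1.34, SE 0.28). It was the 1 gene of the list that DESeq2 called, against 1.81% of all genes, and edgeR called 0. Onecut1, a liver homeobox factor, was at 1.07 (SE 0.32).

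**Figure D4:**
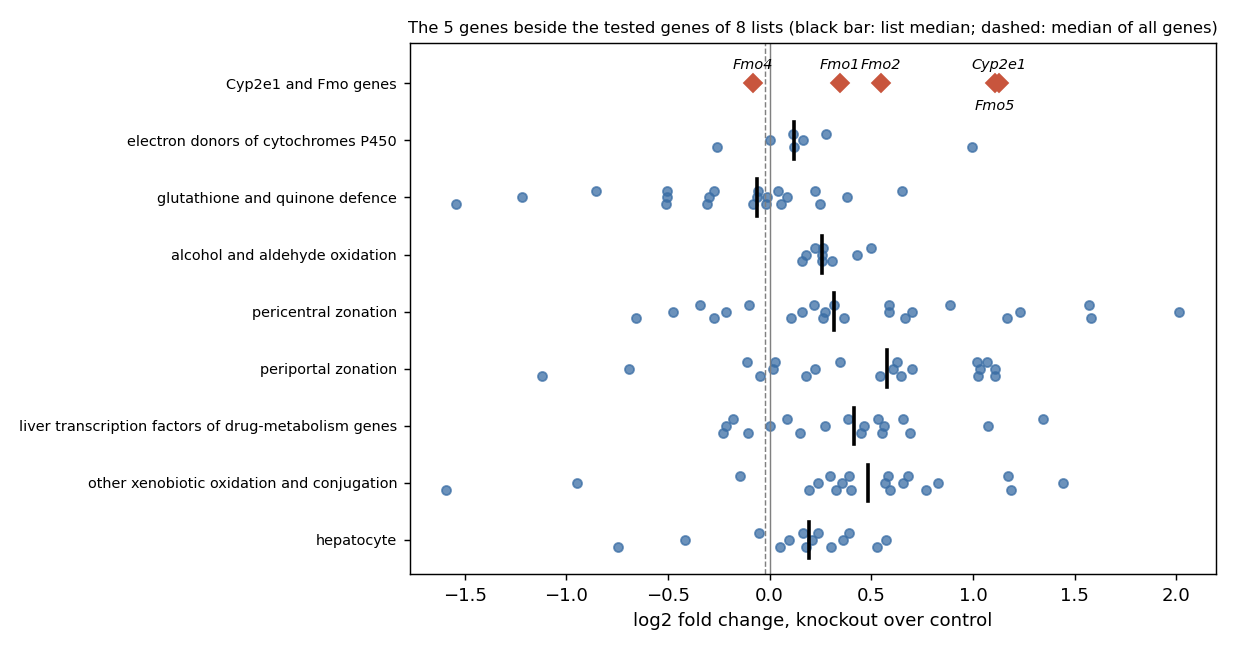
Log2 fold change of knockout over control (horizontal axis) for the 5 genes (red diamonds) and for the tested genes of 8 lists (blue points, spread vertically for legibility), with list medians as black bars and the median of all genes as a dashed line. Cyp2e1 and Fmo5 lie near 1.1, within the range of the pericentral, transcription factor and xenobiotic lists and about the upper end of the periportal list. The glutathione list centres near 0.

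Other genes of xenobiotic oxidation and conjugation were higher in 17 of 20 (median 0.49). DESeq2 called 3, all higher, against 0.874% of all genes called higher, and edgeR 0. The bilirubin transferase gene Ugt1a1 had 75.4 ± 30.6 against 206 ± 49.8 CPM (1.45, SE 0.34) and Cyp3a25 had 448 ± 68.2 against 764 ± 95.9 CPM (0.77, SE 0.23; SD, n = 3 each). Ugt1a1 shares exons with the other Ugt1a genes, so its reads are uncertain. Alcohol and aldehyde oxidation genes, whose substrates CYP2E1 shares, were higher in 9 of 9 but by little (median 0.26, and 0.13 without control mouse 83). EdgeR and DESeq2 called 0, against 0% and 1.81% of all genes, and 0 reached 0.05 unadjusted in edgeR, against 11% of all genes. Aldh2, the mitochondrial acetaldehyde dehydrogenase, was at 0.50 (SE 0.26) and Adh7 at 0.31 (SE 0.21).

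Glutathione and quinone defence genes, which handle reactive products, were near or below 0 on balance. Of 21 tested, 7 had a fold change above 0 and 14 below (median -0.06), and edgeR and DESeq2 called 0, against 0% and 1.81% of all genes. In edgeR 1 reached 0.05 unadjusted (Srxn1, lower), against 11% of all genes, of which 5.95% were lower in knockout mice. With 1 mouse left out the median lay between -0.40 (without knockout mouse 49, with 16 lower) and -0.001 (without knockout mouse 88). Srxn1, which repairs oxidised peroxiredoxins, was at 316 ± 84.5 CPM in controls and 175 ± 96.5 CPM in knockouts (-0.86, SE 0.38). Gsta1 had 211 ± 119 and 90.5 ± 68.5 CPM (-1.22, SE 0.54; SD, n = 3 each), and its reads are uncertain because Gsta genes are near copies. Both were lowest in mice 82 and 88, the mice with the highest Cyp2e1 and Fmo5, and mouse 49 overlapped the controls. Slc7a11, the cystine carrier of glutathione synthesis, named after its values were seen, had 95.7 CPM in control mouse 83 and between 6.00 and 17.9 CPM in the other 5 mice.

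Genes whose levels followed each member most closely over the 6 mice were sought among 8873 genes of at least 10 CPM. Being the best of so many over so few mice, these values describe the pattern and carry no p. For Cyp2e1 they were Phyh, a peroxisomal enzyme of phytanic acid breakdown (Pearson r = 0.997), Pdia5 (0.993) and Metap1d (0.991), each with the same order of mice. Phyh had 964, 493 and 1225 CPM in control mice 42, 83 and 90 and 1131, 1578 and 1413 CPM in knockout mice 49, 82 and 88. For Fmo5 they were Foxo4, a forkhead factor (0.999), Abat, which breaks down GABA (0.999), and Nlrp6 (0.998). Fmo1 was followed by Tmem38b, Suds3 and Ak3 (0.989, 0.983 and 0.980), Fmo2 by Alcam, Cyp20a1 and Cirbp (0.988, 0.987 and 0.986) and Fmo4 by Senp3, Traf2 and Sdccag8 (0.955, 0.952 and 0.944).

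The genes flanking the members were not all placed like them. Beside Fmo5, Chd1l, a chromatin remodeller, was higher in all knockout mice, as were 8.94% of all genes (28.8 ± 6.05 against 39.9 ± 5.45 CPM, SD, n = 3 each). Its log2 fold change was 0.47 (SE 0.21; edgeR adjusted p = 0.454). The groups were barely apart, with 34.0 CPM in control mouse 42 and 34.6 CPM in knockout mouse 49. Prkab2, an AMP kinase subunit, was at -0.26 (SE 0.29). The counted neighbours of Cyp2e1 were nearly silent, with Syce1, Olfr541 and Olfr45 at or near 0 and Zfp941 at 0.577 ± 0.0981 against 1.07 ± 0.384 CPM. On the far side of Fmo4, Prrc2c was at 0.28 (SE 0.30) and Myocos near 0.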

How the data were processed

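Liver RNA of 6 mice was measured by RNA sequencing (TRIzol extraction, NEBNext Ultra libraries, per the labels' protocols). The authors deposited raw counts per gene symbol, 1 column per mouse. Per the submitters' processing notes, Trimmomatic, FastQC, STAR and HTSeq were used with mm10; no versions are listed. The counting's treatment of strand and its annotation were not given in the sources used here. GENCODE M21 matched 21896 symbols once.

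Columns were matched to mice by mouse number. The labels name separate mice but no litters or dates. Counts were filtered with filterByExpr, scaled by TMM (factors 0.909 to 1.20) and fitted in edgeR 4.0.16 (R 4.3.3) with its quasi-likelihood test over 13153 genes, genotype being the only term, with Benjamini-Hochberg adjustment at 0.05. Standard errors come from the fold change and F statistic, and 95% intervals from the t distribution with 8.75 degrees of freedom. The biological coefficient of variation was 0.268. Log2 CPM used a prior count of 2. As a check of the code, the tests were run on simulated counts with the same dispersion for all genes. This does not show their power for the differences reported here.

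The members and lists were chosen with earlier results of these data known. Named genes are the members, Prmt1, the 2 members of each pathway list with the smallest p, the 3 genes most like each member and the nearest 2 protein-coding genes on each side, besides those said to be named later. Of the sex list, Cyp3a41a and Uty were taken, and of the stress list, Egr1 and Jun. Alternatives included DESeq2 1.42.0 and limma-voom (limma 3.58.1). Certain genes taken by the naming rule are not reported here.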

Additional observations from a re-analysis of the deposited data

How the results depend on the processing

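No paired analysis was possible because the genotypes share no mouse numbers. Each member was refitted under 19 alternatives, 6 of which leave out a mouse. Cyp2e1, Fmo1 and Fmo5 kept a positive fold change in all 19. The count of members called was 0 in edgeR and limma-voom, 1 with DESeq2 (Fmo5, log2 fold change 1.11, adjusted p 0.0107) and 2 with library weights in limma-voom (Cyp2e1 at 2.15, adjusted p 0.0396, and Fmo5 at 1.31, adjusted p 0.0282). The weights and the newer edgeR fit were chosen after seeing the data. With 1 mouse left out, log2 fold changes ranged from 0.70 to 1.72 for Cyp2e1, from 0.20 to 0.45 for Fmo1, from -0.14 to 1.07 for Fmo2, from -0.23 to 0.13 for Fmo4 and from 0.95 to 1.35 for Fmo5. The sign turned for Fmo2 without knockout mouse 88 (-0.14) and for Fmo4 without knockout mouse 82 (0.13). The cause was not tested. Scaling by total counts alone moved the median of all genes from -0.02 to -0.17, with Fmo5 at 0.95 and Cyp2e1 at 1.06. In the 4 mice numbered over 80, Fmo5 was at 1.48 and Cyp2e1 at 1.30. With the longest transcript as length, Fmo1 was at 104 in control and 125 in knockout livers and Fmo5 at 509 and 996. Fmo5 was then above Fmo1 by a smaller fold, and the order of genes in each mouse was the same.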

Other observations

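All 6 livers expressed the Y-linked genes Ddx3y (59.7 to 85.8 CPM), Eif2s3y, Kdm5d and Uty. Liver genes known to differ between the sexes varied widely among them. Of the genes in this paragraph, all but Cyp3a41a and Uty were named after their values were seen. Control mouse 83, which had the lowest Cyp2e1 and the second highest Fmo2, also had the lowest level of several genes that male livers express more. Cyp7b1, a steroid hydroxylase, was at 31.3 CPM there and between 83.4 and 108 CPM in the other 5 mice. Mup20, a pheromone carrier of male urine, was at 2319 CPM against 4564 to 6256 CPM. Slco1a1, an organic anion carrier, was at 1.93 CPM against 3.82 to 77.0 CPM. Of genes that female livers express more, Cyp2b9 was at 17.6 CPM in mouse 83, and at 21.9 and 17.5 CPM in knockout mice 49 and 82, but between 0.900 and 3.39 CPM in the other 3. Cyp3a41a was higher in all knockout mice (7.93 to 16.8 CPM) than in all control mice (0.491 to 2.67 CPM). It had a log2 fold change of 2.70 (SE 0.53) with an adjusted p of 0.227 in edgeR and 0.000156 in DESeq2, and its reads are uncertain because of near copies. Uty was at 0.40 (SE 0.21). The part of these differences in the levels of Cyp2e1 and Fmo2 was not tested.

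Immediate early and heat shock genes, which rise with handling and tissue stress, had a fold change below 0 in 7 of 9 (median -0.26). The median was -1.21 without knockout mouse 49, with 9 of 9 below 0, and -0.05 without knockout mouse 82, with 5 of 9 below 0. In knockout mice 82 and 88, Jun was at 45.1 and 55.8 CPM, while knockout mouse 49 (125 CPM) lay among the controls (107 to 134 CPM). Egr1 was at 31.8 and 44.7 CPM in mice 82 and 88 and at 65.5 CPM in mouse 49, against 57.5 to 96.3 CPM in control mice. Fmo5 and Por had the opposite arrangement, with mice 82 and 88 highest and mouse 49 nearest to the controls. Whether the 2 patterns are linked was not tested.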
